A study of Homo sapiens with 12 samples.

Results

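RACGAP1, ECT2, PRC1, ANLN, CIT and CEP55 are genes of cytokinesis, the step that parts a dividing cell after its chromosomes have separated. They were taken as a list of 6 symbols, and every array probe annotated to them was used, which gave 7 of the 47231 probes (2 for RACGAP1 and 1 for each other gene). 5 of the 6 genes passed a filter on dim probes and were tested among 11419 genes, and CIT did not pass it. RNA came from human lymphoma lines grown in vitro: TMD8, derived from a diffuse large B-cell lymphoma of the activated type, and DOHH2, derived from a follicular lymphoma that had transformed. Each line was given either DMSO, the solvent control, or ST5589 at 300 nM, and each of the 4 groups had 3 Illumina beadchip arrays. The labels describe ST5589 as a compound derived from ST1926, an atypical retinoid also known as adarotene. Neither the length of exposure nor the origin of the 3 arrays of a group in separate cultures is stated in the sources used here. The p-values therefore rest on the spread between arrays alone, and that spread may be technical.

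In anaphase the cell builds an array of overlapping microtubules between the separating chromosomes, the central spindle, which marks where the cell will cleave. PRC1 crosslinks antiparallel microtubules there, and RACGAP1 joins the kinesin KIF23 to form the centralspindlin complex. PLK1 phosphorylates RACGAP1 so that it binds ECT2, the exchange factor that switches on the small GTPase RhoA at the cortex. RhoA then drives assembly of the contractile ring, in which ANLN (anillin) holds actin, myosin II, septins and RhoA together and the citron kinase CIT keeps the ring and the later midbody in order. CEP55 sits in the midbody and recruits the ESCRT machinery that cuts the last bridge. In cycling cells the transcripts of many of these genes peak in G2 and mitosis, so their level in a bulk sample follows both the share of cells in those phases and the amount of RNA in each such cell.

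All levels below are normalized log2 intensities of single probes, so they are compared between groups for a gene and not between genes. Median array intensity lay between 90.0 and 113, and 38.0% to 46.1% of probes were above background. Of the 5 pan-B-cell markers with a probe, 4 were above background in all 3 arrays of each group and PAX5 was in none. All 6 markers of activated B cells were above background in both lines and lower in DOHH2 under DMSO. Of the 6 germinal centre markers, 4 were lower in DOHH2 than in TMD8 under DMSO (BCL6, LMO2, MYBL1 and SERPINA9) and 2 were higher (MME and STAP1). MME was above background only in DOHH2 arrays, while BCL6 was not above background in any DOHH2 DMSO array and had a mean of 9.35 in TMD8 under DMSO. No T or NK cell marker of 6 was above background in all 3 arrays of any group, with summed intensities of 1031 to 1297. Of the 6 myeloid markers, 2 or 3 were above background in all 3 arrays of a group, with sums of 861 to 1094. The array of DOHH2 with ST5589 numbered 2 stood apart, because 23 probes that were bright in TMD8 were above background in it and in no other DOHH2 array, at a median of 4.12% of their TMD8 signal. Over all genes, the deviation from the group mean was largest, at a root mean square of 0.186 to 0.187, in the first DMSO array of each line and in array 3 of DOHH2 given ST5589. Array 1 of DOHH2 given ST5589 came close, at 0.176.

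The genes lie on 5 chromosomes in GRCh38.p14. RACGAP1 is at chr12:49989162-50033440, ECT2 at chr3:172750726-172829265, ANLN at chr7:36389862-36453791, PRC1 at chr15:90966040-90994535, CIT at chr12:119685791-119877320 and CEP55 at chr10:93496612-93529092. RefSeq promoters, read from 250 bases before to 50 bases after a gene's start, were found for 5 of the 6 genes. They were searched on both strands for 2 elements of promoters that peak late in the cell cycle: the cell cycle genes homology region, or CHR (TTTGAA or TTCGAA), and the CCAAT box (CCAAT). The promoters below are those of the 4 tested genes that had an entry, and of KIF23, the partner of RACGAP1. Motifs are in capitals, on the gene's strand from 5′ to 3′, so that a motif of the other strand appears as its reverse complement.
ECT2, chr3:172750476-172750775, plus strand: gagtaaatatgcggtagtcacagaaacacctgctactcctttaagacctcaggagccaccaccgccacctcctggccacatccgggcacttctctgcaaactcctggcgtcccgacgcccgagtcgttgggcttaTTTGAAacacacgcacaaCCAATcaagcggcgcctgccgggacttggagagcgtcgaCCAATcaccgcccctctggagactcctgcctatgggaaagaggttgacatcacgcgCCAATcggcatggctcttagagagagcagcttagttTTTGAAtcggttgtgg
PRC1, chr15:90994486-90994785, minus strand: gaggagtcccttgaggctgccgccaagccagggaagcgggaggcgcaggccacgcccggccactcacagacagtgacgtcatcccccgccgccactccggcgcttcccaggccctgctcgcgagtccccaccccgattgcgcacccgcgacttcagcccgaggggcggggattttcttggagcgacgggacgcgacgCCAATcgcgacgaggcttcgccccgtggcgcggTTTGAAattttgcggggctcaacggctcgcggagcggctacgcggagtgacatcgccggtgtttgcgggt
ANLN, chr7:36389612-36389911, plus strand: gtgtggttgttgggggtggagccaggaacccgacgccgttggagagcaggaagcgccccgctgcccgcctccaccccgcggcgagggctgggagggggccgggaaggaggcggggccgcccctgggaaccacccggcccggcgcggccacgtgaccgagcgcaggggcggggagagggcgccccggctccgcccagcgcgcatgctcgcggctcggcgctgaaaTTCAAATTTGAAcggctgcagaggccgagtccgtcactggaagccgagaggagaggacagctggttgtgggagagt
CEP55, chr10:93496362-93496661, plus strand: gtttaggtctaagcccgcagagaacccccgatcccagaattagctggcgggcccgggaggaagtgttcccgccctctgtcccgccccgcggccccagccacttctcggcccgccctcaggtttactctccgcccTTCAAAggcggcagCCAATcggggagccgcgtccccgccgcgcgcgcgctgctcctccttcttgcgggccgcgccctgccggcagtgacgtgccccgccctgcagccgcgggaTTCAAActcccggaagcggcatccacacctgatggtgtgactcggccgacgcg
KIF23, chr15:69414099-69414398, plus strand: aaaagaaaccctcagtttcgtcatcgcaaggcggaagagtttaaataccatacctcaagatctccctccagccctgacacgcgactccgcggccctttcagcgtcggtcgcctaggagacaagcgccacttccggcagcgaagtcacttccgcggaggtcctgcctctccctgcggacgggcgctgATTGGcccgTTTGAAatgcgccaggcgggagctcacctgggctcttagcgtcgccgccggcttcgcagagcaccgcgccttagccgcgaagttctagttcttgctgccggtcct

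A CHR was present in the promoters of all 5 genes with an entry (ECT2, PRC1, ANLN, CEP55 and CIT), against 16.4% of all 35116 RefSeq promoters of this length. A CCAAT box was present in 4 of the 5, against 34.6% of all promoters, and ANLN had none. Both were present in 4 of the 5, against 6.38% of all promoters. A gene counted if any of its entries matched, whereas the shares are of single promoters. Counted from the start, PRC1 had its CCAAT box at -53 and its CHR at -20. ANLN had a pair of CHRs side by side at -26 and -20, on opposite strands and with no base between them. CEP55 had CHRs at -116 and -3 and a CCAAT box at -102. The first ECT2 entry had CHRs at -115 and 35 and CCAAT boxes at -97, -58 and -2. A second ECT2 start, whose window overlaps the first, had CHRs at -242 and -182 and no CCAAT box. The CHR at 35 of the first entry and the one at -242 of the second are the same site. KIF23 had its CCAAT box at -64 and its CHR at -55. These are matches of letters, and no binding was measured.

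In TMD8, PRC1, RACGAP1 and ECT2 fell under ST5589, to levels between 1.52-fold and 1.63-fold below those under DMSO, while ANLN and CEP55 had smaller negative log2 fold changes that did not pass the test. Thus 3 of the 5 tested genes fell at an adjusted p under 0.05 in limma, and none rose. Over all genes 0.928% were called in this comparison, and 0.368% were called lower. The 5 genes had a median log2 fold change of -0.61, against 0.01 over all genes. In 4 of the 5 the treated arrays all lay below the DMSO arrays, which was so for 8.16% of all genes. All 5 had an unadjusted p under 0.05 in limma, against 7.29% of all genes. All 3 calls were lost when arrays were scaled to a common median (limma adjusted p 0.767 to 0.975), with log2 fold changes of -0.90 to -0.78. Treated and untreated arrays held different places on the chip, and the effects of place and compound cannot be told apart. Whether fewer cells were in the phases that express these genes or each such cell held less of their RNA cannot be told apart in these bulk samples.

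PRC1, the microtubule crosslinker, read 11.02, 11.07 and 10.99 in TMD8 under DMSO and 10.39, 10.42 and 10.41 under ST5589. The groups were far apart compared with their spread, with means of 11.03 ± 0.04 and 10.41 ± 0.02 (SD, n = 3 each). PRC1 fell by 0.62 ± 0.10 (SE) on the log2 scale, 1.54-fold, with a limma adjusted p of 0.00645.

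RACGAP1, the GTPase-activating subunit of centralspindlin, read 9.76, 9.47 and 9.36 under DMSO and 8.88, 8.87 and 9.02 under ST5589. Every treated array was below every DMSO array, although DMSO array 1 was well above the other 2 of its group. RACGAP1 fell by 0.61 ± 0.13 on the log2 scale, 1.52-fold, with a limma adjusted p of 0.0427. Its second, dimmer probe read 7.17, 7.13 and 7.15 under DMSO and 6.98, 7.11 and 6.87 under ST5589, a log2 difference of -0.16. The probes of RACGAP1 thus disagreed on the size of the change in TMD8, and the mean of both gave -0.38 with a limma adjusted p of 0.104. The call was also lost when any 1 of the 6 TMD8 arrays or any of 3 DOHH2 arrays was left out (DMSO 2, DMSO 3 or ST5589 1), with limma adjusted p-values of 0.0554 to 0.200, and with the authors' own log2 values (0.0511).

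ECT2, the RhoA exchange factor that RACGAP1 binds, read 10.05, 9.67 and 9.64 under DMSO and 8.93, 9.20 and 9.11 under ST5589. The groups did not overlap, and DMSO array 1 was again the highest. ECT2 fell by 0.70 ± 0.12 on the log2 scale, 1.63-fold, with a limma adjusted p of 0.0128. Without TMD8 ST5589 array 1 the limma adjusted p was 0.0830, and without array 3 of that group it was 0.0580.

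ANLN, the ring scaffold, read 8.47, 8.04 and 8.20 under DMSO and 7.76, 8.07 and 7.83 under ST5589. The groups overlapped, because treated array 2 was above DMSO array 2. The log2 fold change of ANLN was -0.35 ± 0.15 with a limma adjusted p of 0.647.

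CEP55, the midbody protein that brings in the ESCRT factors, read 10.60, 10.31 and 10.22 under DMSO and 9.95, 10.03 and 9.91 under ST5589. All treated arrays were below all DMSO arrays, with means of 10.38 ± 0.20 and 9.97 ± 0.06. The log2 fold change was -0.41 ± 0.13, and the limma adjusted p of 0.298 did not pass.

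CIT, the citron kinase, stayed at the edge of detection. It read 6.23, 5.99 and 5.92 in TMD8 under DMSO, 5.97, 6.08 and 6.09 in TMD8 under ST5589, 6.0, 6.28 and 6.14 in DOHH2 under DMSO, and 6.07, 6.14 and 6.25 in DOHH2 under ST5589. The lowest signal above background was 6.15 to 6.27 depending on the array, and the CIT probe was above background on 3 of 12 arrays, namely array 1 of TMD8 under DMSO, array 2 of DOHH2 under DMSO and array 3 of DOHH2 under ST5589. No fold change is given for CIT, since no group measured it in all its arrays.

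**Figure D1:**
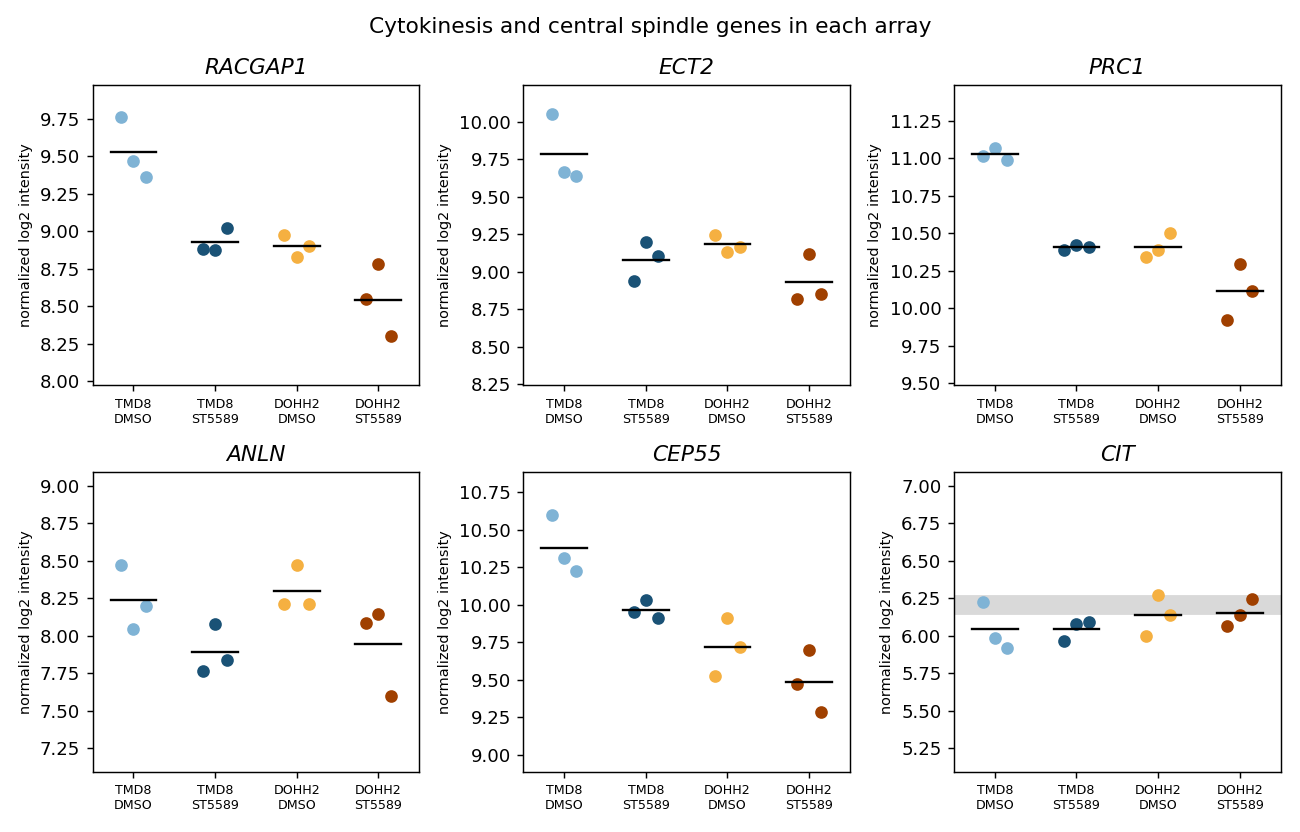
Normalized log2 intensity (vertical axis) of each gene in each of the 12 arrays, by group; points are arrays, bars are group means, and all panels span the same number of log2 units. The grey band in the CIT panel marks the lowest signal above background over the arrays (6.15 to 6.27); PRC1, RACGAP1, ECT2 and CEP55 are highest in TMD8 under DMSO.

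In DOHH2 the same 5 genes had negative log2 fold changes, smaller for 4 of them than in TMD8, and none passed the test. Of all genes, 0.0350% were called in this line by limma. At an unadjusted p under 0.05, limma listed 3 of the 5 genes (RACGAP1, PRC1 and ANLN), against 4.77% of all genes. Their median log2 fold change was -0.30, against 0.01 over all genes, and in 4 of the 5 the treated arrays all lay below the DMSO arrays, against 3.91% of all genes.

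PRC1 read 10.34, 10.39 and 10.50 in DOHH2 under DMSO and 9.92, 10.30 and 10.12 under ST5589. The treated arrays were all lower, by a narrow margin for array 2. The log2 fold change was -0.30, with a 95% confidence interval of -0.50 to -0.09 and a limma adjusted p of 0.927, the value that all 5 genes shared.

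RACGAP1 read 8.97, 8.83 and 8.90 under DMSO and 8.55, 8.78 and 8.30 under ST5589. The groups did not overlap, and the treated arrays were spread more widely than the controls. Its log2 fold change was -0.36, with an interval of -0.63 to -0.08. In this line the second RACGAP1 probe gave a matching log2 difference of -0.36.

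ECT2 read 9.25, 9.13 and 9.17 under DMSO and 8.82, 9.12 and 8.85 under ST5589. Treated array 2 was just below the lowest control, and the other 2 were clearly lower. Its log2 fold change was -0.25, with an interval of -0.52 to 0.01.

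ANLN read 8.21, 8.47 and 8.21 under DMSO and 8.09, 8.15 and 7.60 under ST5589. The groups did not overlap, and treated array 3 was far below the rest. Its log2 fold change was -0.35, with an interval of -0.68 to -0.02, and -0.18 without that array.

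CEP55 read 9.52, 9.91 and 9.72 under DMSO and 9.47, 9.70 and 9.28 under ST5589. The groups overlapped, and the log2 fold change was -0.23, with an interval of -0.52 to 0.05. Without treated array 3 it was -0.13, and that of RACGAP1 was -0.24.

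Array 2 of the treated DOHH2 cells, the one with 23 TMD8-bright probes above background, was the highest treated DOHH2 array for all 5 genes. Without it the log2 fold changes were -0.47 for RACGAP1, -0.35 for ECT2, -0.45 for ANLN, -0.39 for PRC1 and -0.34 for CEP55, and the limma adjusted p-values were 0.455 to 0.732. Leaving out the highest treated array lowers the treated mean, so the larger changes in DOHH2 tell nothing about that array. None of the 5 genes was called without it. The source of the signal at those 23 probes, and any part of it in these levels, was not tested.

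Whether the lines differed in their response was tested as the DOHH2 effect minus the TMD8 effect. None of the 5 genes passed in limma (adjusted p of 1.0 for each), where 0.0175% of all genes did. At an unadjusted p under 0.05, limma listed 2 of the 5 genes, ECT2 and PRC1, against 2.69% of all genes. The difference was 0.45 for ECT2 (95% interval 0.08 to 0.83) and 0.32 for PRC1 (0.03 to 0.62), so these intervals lay on the side of a smaller fall in DOHH2. The difference was 0.25 for RACGAP1 (-0.14 to 0.64), 0.18 for CEP55 (-0.22 to 0.58) and -0.01 for ANLN (-0.47 to 0.46). The intervals for RACGAP1, CEP55 and ANLN hold both equal and clearly unequal responses.

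Averaged over both lines, PRC1 fell by 0.46 ± 0.07 on the log2 scale (limma adjusted p 0.00430), RACGAP1 by 0.48 ± 0.09 (0.0206) and ECT2 by 0.48 ± 0.09 (0.0165). Over all genes 0.744% were called in the average, and 0.368% were called lower. The averages of -0.35 ± 0.11 for ANLN and -0.32 ± 0.09 for CEP55 did not pass (limma adjusted p 0.238 and 0.185). The RACGAP1 average missed the threshold without TMD8 ST5589 array 1 or 2 or DOHH2 DMSO array 1 or 3 (limma adjusted p 0.0515 to 0.0749), and that of ECT2 without TMD8 ST5589 array 1 (0.0639). Scaling to a common median ended all 3 calls of the average (limma adjusted p 0.676 to 0.890). The averages use the same arrays as the contrasts within each line and add no separate evidence.

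**Figure D2:**
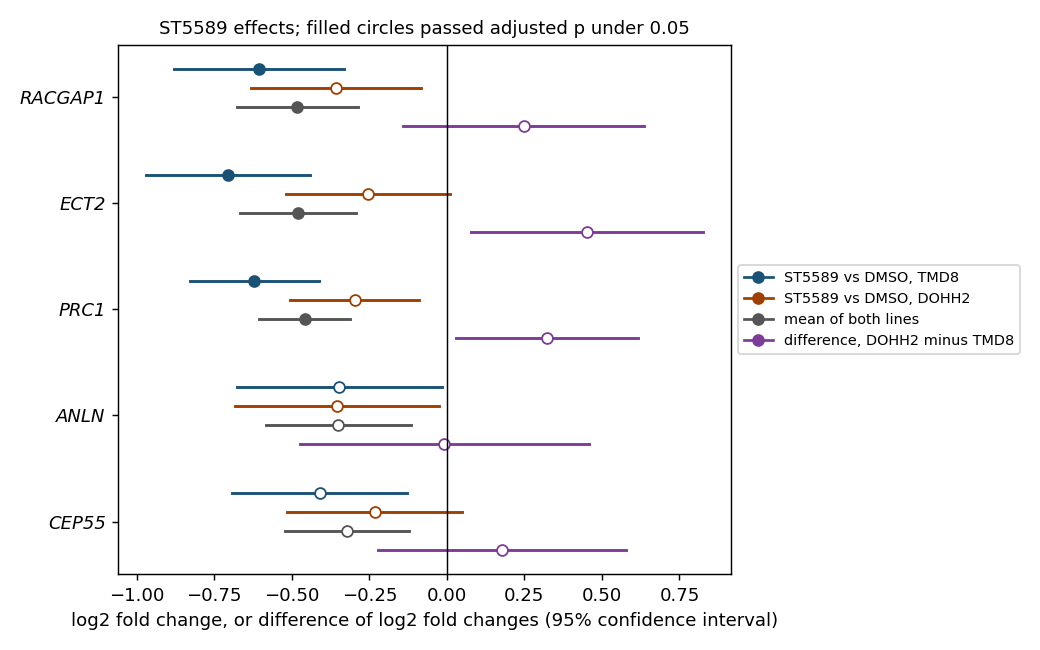
Log2 fold changes of ST5589 against DMSO in TMD8, in DOHH2 and averaged over both, and the difference DOHH2 minus TMD8 (horizontal axis, log2 units), with 95% confidence intervals as lines; filled circles passed an adjusted p under 0.05 in limma. Estimates within lines are all below 0, between -0.70 and -0.23, and filled for RACGAP1, ECT2 and PRC1 in TMD8 and in the average.

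The lines also differed before treatment. Under DMSO 4 of the 5 genes were lower in DOHH2 than in TMD8 at an adjusted p under 0.05 in limma, where 53.8% of all genes were called and 27.7% were called lower. PRC1 was lower by a log2 difference of -0.62 ± 0.10 (limma adjusted p 9.75e-05), CEP55 by -0.66 ± 0.13 (0.000728), RACGAP1 by -0.63 ± 0.13 (0.000864) and ECT2 by -0.60 ± 0.12 (0.000891). Under median scaling the calls of RACGAP1, ECT2 and PRC1 were lost (limma adjusted p 0.0573, 0.0657 and 0.0720). ANLN did not follow them, with a difference of 0.06 ± 0.15 (limma adjusted p 0.760) and means of 8.24 ± 0.21 in TMD8 and 8.30 ± 0.15 in DOHH2. The effect of the line cannot be told apart from that of the chip, because each line was run on a separate chip.

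The order of the 4 groups was alike for PRC1, RACGAP1 and ECT2: TMD8 under DMSO was highest, DOHH2 under ST5589 lowest, and the 2 groups between did not differ beyond their spread. For PRC1 these were treated TMD8 at 10.41 ± 0.02 and untreated DOHH2 at 10.41 ± 0.08, and for RACGAP1 they were 8.92 ± 0.08 and 8.90 ± 0.07. For ECT2 they were 9.08 ± 0.13 and 9.18 ± 0.06, with overlapping arrays. DOHH2 under ST5589 had 10.11 ± 0.19 for PRC1, 8.54 ± 0.24 for RACGAP1 and 8.93 ± 0.16 for ECT2, the last of these overlapping treated TMD8. CEP55 was at 10.38 ± 0.20 and 9.97 ± 0.06 in untreated and treated TMD8 and at 9.72 ± 0.19 and 9.48 ± 0.21 in untreated and treated DOHH2, and the DOHH2 groups overlapped. For ANLN both DMSO means were above both ST5589 means, with treated means of 7.89 ± 0.16 in TMD8 and 7.94 ± 0.30 in DOHH2, which overlapped.

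Other genes of cytokinesis were grouped by the step they act in. The 9 genes of the central spindle and the chromosomal passenger complex were all measured, and 4 of them fell in TMD8 (limma, adjusted p under 0.05), with none called higher, where 0.928% of all genes were called and 0.368% were called lower. All 9 had negative log2 fold changes, against 47.3% of all genes, and their median was -0.47. KIF20A, the kinesin that carries the passenger complex to the central spindle, read 9.72, 9.87 and 9.88 under DMSO and 8.60, 8.58 and 8.61 under ST5589. Its groups were wide apart, and it fell by 1.23 ± 0.10 on the log2 scale (limma adjusted p 0.000198). PLK1, the kinase that licenses the binding of ECT2 to RACGAP1, read 8.19, 8.28 and 8.35 against 7.08, 7.20 and 7.08. It fell by 1.15 ± 0.11 (limma adjusted p 0.000283), also with no overlap.

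KIF23, the motor subunit of centralspindlin, read 9.07, 9.14 and 8.98 under DMSO and 8.54, 8.56 and 8.59 under ST5589 in TMD8. It fell by 0.50 ± 0.08 (limma adjusted p 0.00887), so both named subunits of centralspindlin were called lower in this line. The RACGAP1 call, however, held in only 9 of 24 alternatives, and its second probe gave -0.16. BIRC5 (survivin), a passenger complex subunit, fell by 0.59 ± 0.11 (limma adjusted p 0.0238). The KIF23 call was lost without TMD8 DMSO array 2 or ST5589 array 1 (limma adjusted p 0.0646 and 0.0524), and the BIRC5 call without any of 5 TMD8 arrays, all but DMSO array 1 (up to 0.130). The mean of the kept BIRC5 probes gave -0.50, with a limma adjusted p of 0.0503 that did not pass. Scaling to a common median ended the calls of KIF23, BIRC5 and KIF20A (limma adjusted p 0.925, 0.671 and 0.0774) and not that of PLK1. AURKB, the kinase of the passenger complex, had a log2 fold change of -0.26 ± 0.09 and did not pass (limma adjusted p 0.355).

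In DOHH2 all 9 again had negative log2 fold changes, against 46.7% of all genes, with a median of -0.20. Only KIF20A of the 9 passed in limma, where 0.0175% of all genes were called lower. It read 9.09, 8.95 and 9.08 under DMSO and 8.16, 8.57 and 8.36 under ST5589, again with no overlap, and fell by 0.68 ± 0.10 (limma adjusted p 0.0495). That call stood at the threshold and held under 6 of 24 alternative settings. Among the 12 that left out 1 array, it held in 2, those without TMD8 DMSO array 1 and without DOHH2 ST5589 array 2. KIF23 had -0.40 ± 0.08 (limma adjusted p 0.280), with all treated arrays, at 8.01 to 8.21, below all controls, at 8.44 to 8.54. PLK1 had -0.24 ± 0.11 and AURKB -0.05 ± 0.09 (limma adjusted p 0.927 and 0.955).

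Genes of the ring and of abscission gave no calls. Of 18 genes of the contractile ring and RhoA pathway 17 were tested, and limma called none in TMD8 or DOHH2, with 3 at an unadjusted p under 0.05 in each (7.29% and 4.77% of all genes). Their log2 fold changes had medians of -0.01 in TMD8 and 0.07 in DOHH2. RHOA itself had -0.25 ± 0.18 in TMD8 and 0.07 ± 0.18 in DOHH2 (limma adjusted p 0.865 and 0.970). In TMD8 the RHOA value was -0.044 without DMSO array 1. The sign of RHOA in DOHH2 turned to -0.15 when arrays were scaled to a common median. KIF14, a mitotic kinesin that binds PRC1 and citron kinase, had -0.43 ± 0.11 in TMD8 and -0.24 ± 0.11 in DOHH2 (limma adjusted p 0.103 and 0.927), with no overlap of groups in either. MYL12A, a myosin regulatory light chain, had the lowest value of the list in TMD8, -0.83 ± 0.37, but its DMSO arrays had an SD of 0.89 and limma did not call it (adjusted p 0.647). Without TMD8 DMSO array 1 the MYL12A value was -0.32. SEPTIN9, a septin of the ring chosen here after its values were seen, had the highest value of the list in both lines, 0.36 ± 0.13 in TMD8 and 0.38 ± 0.13 in DOHH2. Its treated arrays all lay above the DMSO arrays in each line, and limma called it in neither (adjusted p 0.393 and 0.927).

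Of 20 genes of the midbody and abscission 18 were tested, and limma called none in either line, with 0 at an unadjusted p under 0.05 in each. Their medians were -0.03 in TMD8 and 0.01 in DOHH2. SNF8 and TSG101, subunits of ESCRT complexes, had the largest absolute values in TMD8, at 0.33 ± 0.22 and -0.22 ± 0.11 (limma adjusted p 0.840 and 0.707), and 0.088 and -0.12 without TMD8 DMSO array 1. CHMP4B, an ESCRT-III filament subunit, had -0.11 ± 0.09 (limma adjusted p 0.875). Among genes with a promoter entry, a CHR was found for 6 of 8 in the central spindle and passenger list. It was found for 3 of 18 in the ring list and for 0 of 16 in the abscission list. A gene counted if any of its entries held a CHR, whereas the 16.4% is a share of single promoters. KIF20A, the gene of the first list with the largest fall, had neither TTTGAA nor TTCGAA on either strand and had CCAAT boxes at -94 and -67. Other forms of the CHR were not searched. Any link between these motifs and the fold changes was not tested.

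**Figure D3:**
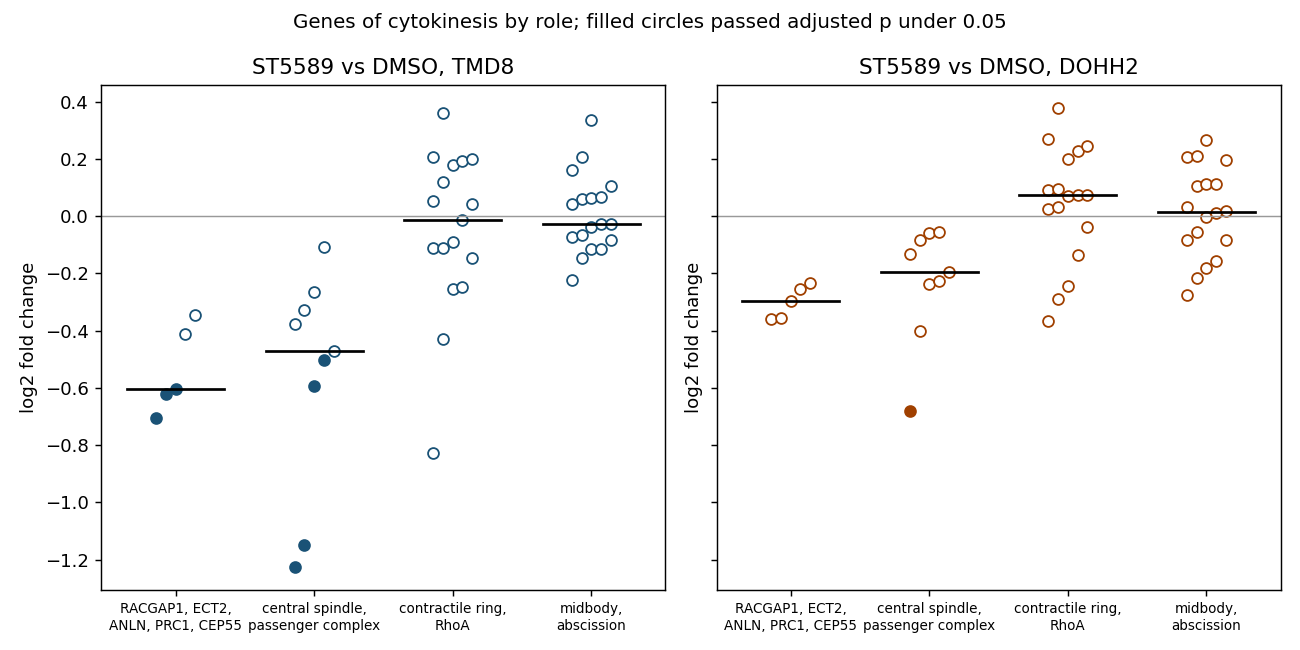
Log2 fold change of ST5589 against DMSO (vertical axis) for each tested gene of the 4 lists in TMD8 (left) and DOHH2 (right); bars are list medians and filled circles passed an adjusted p under 0.05 in limma. In TMD8 the medians are -0.61 and -0.47 for the first 2 lists and -0.01 and -0.03 for the contractile ring and abscission lists.

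The profile of the 5 genes over the arrays was averaged after centring each gene on the mean of each line, so the difference between treated and untreated arrays is part of it. This average stood at 0.46, 0.19 and 0.16 in the TMD8 DMSO arrays and at -0.34, -0.20 and -0.26 in the treated ones. In DOHH2 it stood at 0.11, 0.19 and 0.15 under DMSO and at -0.18, 0.06 and -0.32 under ST5589. Treated array 2 of DOHH2 was thus the single treated array above 0. Within a group the genes did not keep a single order: in the DOHH2 DMSO arrays RACGAP1 and ECT2 were highest in array 1, ANLN and CEP55 in array 2 and PRC1 in array 3. TMD8 DMSO array 1, which was among the arrays that deviated most over all genes, was the highest array for RACGAP1, ECT2, ANLN and CEP55 and was not the highest for PRC1.

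Among all tested genes outside the list, the 5 whose centred profile lay closest to this average over the 12 arrays were ASPM, TOP2A, CENPF, HMGB2 and BUB1B, at root mean square differences of 0.0403, 0.0817, 0.0903, 0.0932 and 0.0983 log2 units. The median over all genes was 0.277. The 5 genes themselves lay at 0.0794 (RACGAP1) to 0.125 (ANLN), but each is part of the average it was set against, which lowers its distance. ASPM is a spindle pole protein, TOP2A untangles DNA, CENPF is a kinetochore protein, HMGB2 is a chromatin protein and BUB1B is a kinase-like protein of the spindle checkpoint. In TMD8 their log2 fold changes were -0.51, -0.66, -0.47, -0.56 and -0.42, and limma called TOP2A (adjusted p 0.0205) and CENPF (0.0407). Those calls were lost without any of 5 TMD8 arrays for TOP2A (all but DMSO 3), and without any TMD8 array or DOHH2 DMSO array 3 for CENPF (limma adjusted p up to 0.112 and 0.200). Median scaling ended both (limma adjusted p 0.791 for TOP2A and 0.975 for CENPF), as did a replicate block (0.0790 and 0.106). The CENPF call was also lost with a normexp offset of 16 and with a trended robust variance (limma adjusted p 0.0733 and 0.0718). In DOHH2 the log2 fold changes of ASPM, TOP2A, CENPF, HMGB2 and BUB1B were -0.35, -0.37, -0.43, -0.30 and -0.30. None was called in limma, with 0.385 the lowest adjusted p. These genes were picked for the likeness, so their direction is a description.

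**Figure D4:**
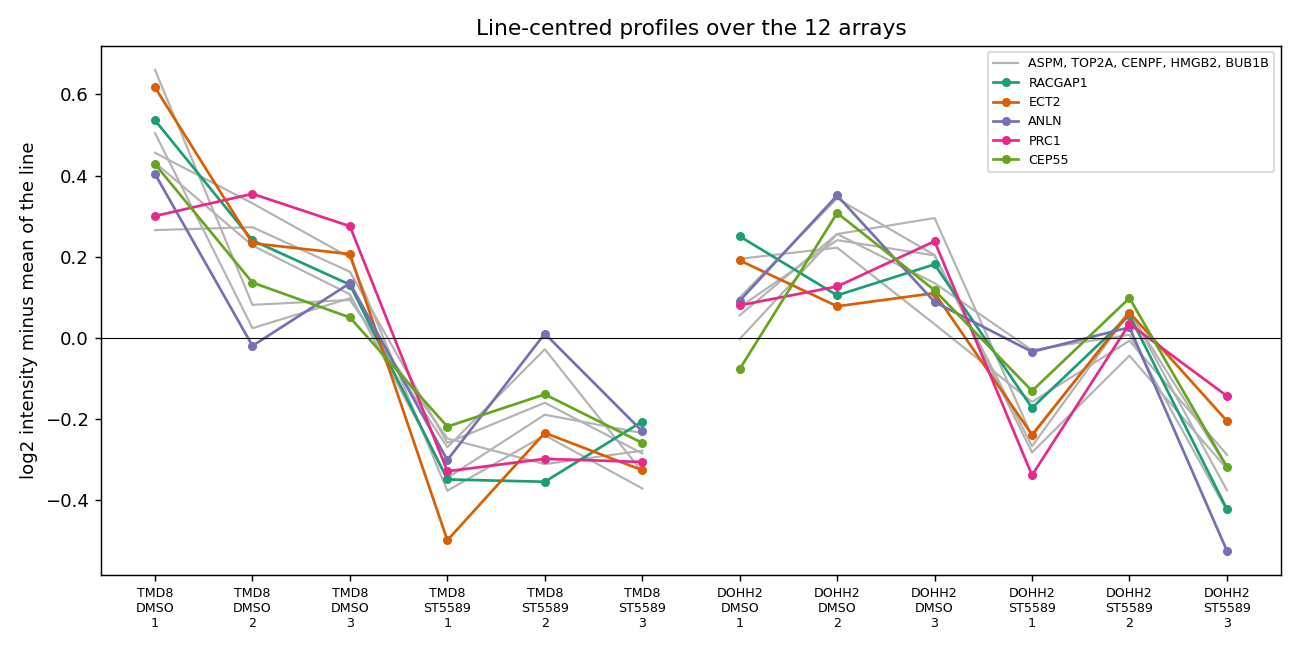
Log2 intensity minus the mean of the line (vertical axis) in the 12 arrays for RACGAP1, ECT2, ANLN, PRC1 and CEP55 (coloured) and for ASPM, TOP2A, CENPF, HMGB2 and BUB1B (grey). All coloured lines are above 0 in TMD8 DMSO arrays 1 and 3, and treated DOHH2 array 2 lies above the other 2 arrays of its group for each coloured gene.

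How far each TMD8 value moved with the processing was read from 24 alternatives, 12 of which left out 1 array each. The direction was negative in all 24 for each of the 5 genes. PRC1 was called in 22 of them, ECT2 in 20 and RACGAP1 in 9, while ANLN and CEP55 were called in none. The log2 fold change ranged from -0.84 to -0.60 for PRC1, from -0.90 to -0.57 for ECT2 and from -0.78 to -0.38 for RACGAP1.

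**Figure D5:**
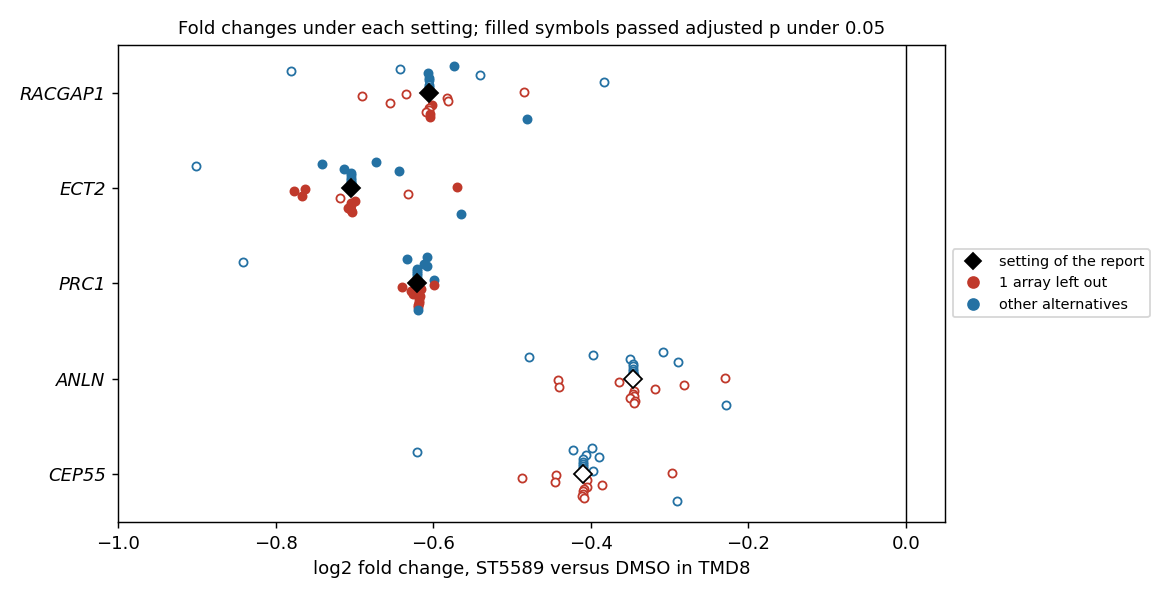
Log2 fold change of ST5589 against DMSO in TMD8 (horizontal axis) for each tested gene under the setting used here (diamonds), with 1 array left out (red) and under the other alternatives (blue); filled symbols passed an adjusted p under 0.05 in limma. All symbols are below 0, and most are filled for PRC1 and ECT2.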

How the data were processed

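RNA was purified on silica columns, checked for integrity and turned into biotin-labelled cRNA, per the labels' protocols, and arrays were read with GenomeStudio, per the submitters' processing notes (no version stated). The authors deposited non-normalized probe intensity values and a second table of log2 values, with no normalization stated for it. The log2 values served as an alternative only.

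Intensities were background corrected with normexp (offset 50) and quantile normalized as log2 values (R 4.3.3, limma 3.58.1). The table holds no detection p-values, so a probe counted as above background if it exceeded the mode of its array by 2.33 SD, with the SD mirrored from values under the mode. The filter kept 20535 probes, those exceeding background in every array of 1 group or more, of which 15380 had 1 gene symbol in the platform annotation, updated to current symbols. The brightest kept probe stood for a gene (11419 genes). One group-means model over 12 arrays was fitted with lmFit and eBayes, and p-values were adjusted over all genes by the Benjamini-Hochberg method. A run on simulated data drew independent noise for each gene and array. That run could not address shared deviations of arrays, scaling or place on the chip. Precision is limited by the number of arrays, with a median SE of 0.11 for log2 fold changes in a line.

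The genes, lists and tests were chosen with earlier results of these data known. Named beyond the 6 genes were list members called under treatment, otherwise the 2 with the largest absolute change in TMD8 per list, 6 known partners and the 5 nearest profiles. Within a line, DMSO arrays held the first places of a chip, so treatment and place cannot be told apart. The labels state no pairing of the arrays, and the main model used none. Alternatives changed the background correction, scaling, filter, probe choice, variance model, block and arrays used.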

Additional observations from a re-analysis of the deposited data

How the results depend on the processing

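With arrays scaled to a common median, which moved the median of all genes to -0.09 in TMD8 and -0.04 in DOHH2, the number of the 5 genes called was 0 instead of 3 in TMD8, 0 instead of 3 in the average and 1 instead of 4 between the lines. Calls over all genes then went from 106 to 9 in TMD8 (7 higher and 2 lower, against 64 and 42), from 4 to 0 in DOHH2, from 2 to 0 for the difference, from 85 to 0 for the average and from 6149 to 3923 between lines. A replicate block gave 0 called of the 5 in TMD8 and 1 in the average, and 40, 0, 1 and 46 calls over all genes in TMD8, DOHH2, the difference and the average. With the block the limma adjusted p in TMD8 was 0.0513 for PRC1, 0.116 for ECT2, 0.195 for RACGAP1, 0.106 for KIF23 and 0.159 for BIRC5, and in the average 0.149 for ECT2 and 0.135 for RACGAP1. The same replicate numbers deviated together in no line (correlations -0.49 to 0.00). Under other numbers the correlations in DOHH2 were -0.53 to 0.57. They were 0.57 for DMSO 2 with ST5589 1 and 0.52 for DMSO 1 with ST5589 3. A pairing in another order was not tested. Leaving out 1 array gave 1 to 3 called of the 5 genes in TMD8 and in the average, and over all genes 55 to 117 calls in TMD8, 1 to 5 in DOHH2, 0 to 17 for the difference, 64 to 82 for the average and 5372 to 6380 between lines. The count of the 5 in TMD8 was 1 without ST5589 array 1 or 3, and in the average 1 without TMD8 ST5589 array 1.

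Leaving out 3 arrays together (TMD8 DMSO 1, DOHH2 DMSO 1 and DOHH2 ST5589 3), an alternative added with results known, gave 161 calls in TMD8 and 2 in DOHH2, and again 3 of the 5 genes in TMD8. In DOHH2 the 4 calls became 1 with no background correction, 2 with an offset of 16, 1 with probes above background on all 12 arrays, 2 with a trended robust variance and 0 with the 6 arrays of that line alone. For the difference, 2 became 1 with no background correction, 4 with an offset of 16 and 1 with the authors' values. Signs turned for ANLN, RHOA and MYL12A, and MYL12A was not near 0 before (-0.37). The ANLN difference was 0.046 with median scaling, 0.0064 with the 3 arrays out and -0.12 to 0.16 with 1 array out. ANLN between lines was -0.018 with median scaling and -0.035 to 0.18 with 1 array out, RHOA in DOHH2 was -0.15 and -0.068 to 0.25, and MYL12A in DOHH2 was -0.62 to 0.024 with 1 array out. Of the values of single genes, 1472 kept their direction and side of the threshold, 113 lost a call, 7 gained one and 14 turned sign. RACGAP1 in TMD8 also lost its call with an offset of 16 (limma adjusted p 0.0663) and a trended robust variance (0.0504). The causes were not tested. Signal near background limits CIT.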
